A study of Rattus norvegicus with 39 samples.

Results

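The liver makes most of the proteins that clot blood, dissolve clots and form the complement system. The messenger RNAs of 38 such genes, taken from a list of coagulation and complement proteins, were followed in rat livers 48 h after exposure to 6 compounds. A gene was kept where at least 1 probe set of the array named it alone, which left 33 of the 38 among the 14217 genes measured in this way. The 33 genes had 38 probe sets: 30 had 1 each, Mbl2 had 2, and Masp1 and Masp2 had 3 each. C2 and Cfb were reached only by 4 probe sets that name both, so their signal could not be assigned, and F7, F11 and F13b were not analysed here.

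Each of 39 arrays held the RNA of the left lateral lobe of 1 rat aged 5 to 6 weeks, on an Affymetrix rat expression array. The groups of 5 rats were ANIT (the bile duct toxicant alpha-naphthylisothiocyanate, given by mouth at 125 mg/kg in corn oil), DMN (dimethylnitrosamine, 15 mg/kg in water, oral), NMF (N-methylformamide, 1000 mg/kg in saline, intraperitoneal), Caerulein (50 µg/kg in saline, intraperitoneal), DNP (2,4-dinitrophenol, 15 mg/kg in water, oral) and Roziglitazone, as the labels spell it (1000 mg/kg in methylcellulose, oral). The 9 control rats were untreated and received no vehicle, so effects of a compound, its vehicle and its route cannot be told apart in comparisons with untreated rats. DMN and DNP share a vehicle and route, as do NMF and Caerulein. ANIT, DMN and NMF are called toxicants here from what is known of the compounds, not from the labels: ANIT injures bile duct cells and causes cholestasis, and DMN and NMF injure hepatocytes. Caerulein acts on the pancreas, DNP uncouples mitochondrial respiration, and rosiglitazone activates PPAR gamma.

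In clotting, a chain of serine proteases that ends in thrombin turns fibrinogen into fibrin. Several of these enzymes carry glutamate residues modified with the help of vitamin K. Plasma proteins such as antithrombin and protein C hold clotting in check, while plasmin dissolves the clot. Complement is a second protease chain, which the classical, lectin and alternative routes start and which meets at C3. Cleavage of C5 then starts the terminal pathway, in which C5b joins C6, C7, C8 and several copies of C9 into a pore in the target membrane. Hepatocytes are the main source of most of these plasma proteins, and many of the genes also respond to inflammatory signals.

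The promoters of C5 and C6 are shown because, of all members, these 2 messages differed most between ANIT and NMF livers, and because C5 was higher and C6 lower in ANIT livers. Those of C8a and C8b are set beside them as genes of the same pore that were lower in NMF livers. They come from RefSeq on build GRCr8 and run from 250 bases before to 50 bases after the annotated start, on the coding strand, 5′ to 3′, at chr3:38759419-38759718 (minus strand), chr2:55573383-55573682 (plus), chr5:124866582-124866881 (minus) and chr5:124763864-124764163 (plus).
C5: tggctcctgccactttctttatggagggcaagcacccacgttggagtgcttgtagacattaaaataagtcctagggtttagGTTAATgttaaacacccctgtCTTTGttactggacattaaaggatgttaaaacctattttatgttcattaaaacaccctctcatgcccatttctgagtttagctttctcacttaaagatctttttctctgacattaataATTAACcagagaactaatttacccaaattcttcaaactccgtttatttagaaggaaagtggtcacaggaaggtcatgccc
C6: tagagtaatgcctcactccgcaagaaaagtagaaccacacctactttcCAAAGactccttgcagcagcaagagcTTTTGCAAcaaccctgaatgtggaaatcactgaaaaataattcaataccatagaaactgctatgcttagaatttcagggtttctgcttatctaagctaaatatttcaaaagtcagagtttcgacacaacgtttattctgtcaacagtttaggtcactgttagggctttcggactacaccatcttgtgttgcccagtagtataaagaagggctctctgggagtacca
C8a: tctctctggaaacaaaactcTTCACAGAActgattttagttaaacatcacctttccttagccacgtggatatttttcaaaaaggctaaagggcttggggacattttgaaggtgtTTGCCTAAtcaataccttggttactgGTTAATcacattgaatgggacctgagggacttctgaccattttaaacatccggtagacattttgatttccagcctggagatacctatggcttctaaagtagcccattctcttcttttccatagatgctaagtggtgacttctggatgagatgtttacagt
C8b: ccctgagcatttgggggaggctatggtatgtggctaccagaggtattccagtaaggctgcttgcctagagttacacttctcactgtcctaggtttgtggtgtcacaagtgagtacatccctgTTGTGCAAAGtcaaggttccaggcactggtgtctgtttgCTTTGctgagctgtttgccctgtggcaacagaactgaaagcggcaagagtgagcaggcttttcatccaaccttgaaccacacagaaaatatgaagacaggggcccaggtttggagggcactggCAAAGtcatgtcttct
Capitals mark matches, on either strand, to the letters TTCNNNGAA (STAT), TTGCNNAA (C/EBP), GTTAAT (HNF1) and CAAAG (part of the HNF4 motif). In C8b a C/EBP and a CAAAG match overlap. C5 held GTTAAT at 2 places and neither the STAT nor the C/EBP letters in this window, whereas C6 held TTGCNNAA once, in reverse orientation. Of the 38 genes, 29 had a promoter in the table, and 10 of these (34.5%) held TTGCNNAA, against 10.5% of all 27457 promoters. The letters GTTAAT stood in 8 of the 29 (27.6%), against 7.37% of all. TTCNNNGAA stood in 6 (20.7%), against 8.68% of all, and CAAAG in 21 (72.4%), against 53.5% of all. The longer palindromic HNF1 form and CAAAGTCCA were found in 0 of the 29. A match describes the letters and was not tested as a site.

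The values are log2 intensities, and the members were among the bright genes of the liver, with Apoh, Ahsg and C3 within 1 log2 unit of 14.50, the highest intensity on any array. All tissue labels fitted liver: 6 hepatocyte markers averaged between 12.67 and 13.41 on every array. The labels of 3 arrays were in doubt. By deviations from the overall mean, ANIT 3 resembled DMN (r = 0.705) more than the other ANIT arrays (0.301), Roziglitazone 2 resembled ANIT (0.802) and not its group (−0.303), and DMN 2 resembled no group above 0.120. By the same measure only 15 of all 39 arrays were closest to their own group, so a poor match to it did not by itself set these 3 apart. Separately, 6 arrays (DMN 3, NMF 3, DNP 1, Roziglitazone 1, control 4 and control 5) read 6.34 to 7.42 on the 5′ GAPDH control probe set, where the others read at least 10.49. On DNP 1, Roziglitazone 1 and control 5 the 3′ GAPDH signal was low too, so the 5′ level alone does not measure RNA length. Counts below are therefore also given without each of these sets of arrays. In bulk liver, fewer cells of a type and less RNA per cell cannot be told apart. The labels do not give strain, sex or batch.

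Among the toxicants, NMF livers showed the widest loss. In NMF livers 13 of the 33 genes were lower than in controls and 0 were higher, at an adjusted p under 0.05 by limma, the threshold for a call throughout. Over all 14217 genes 7.48% were called in this comparison, 3.63% as lower and 3.85% as higher, and over the 1720 genes at least as bright as the dimmest member 22.3% were called, 11.1% as lower. The median log2 fold change of the 33 genes was −0.33 in NMF livers against controls, where the median of all genes was −0.05 and that of the bright genes 0.04, and 31 of the 33 lay below 0. Without the 3 doubted arrays the count was 15, and without the 6 arrays low in 5′ GAPDH signal it was 20, each time all lower.

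In ANIT livers 8 of the 33 genes were called, 3 higher and 5 lower, where 16.5% of all genes (8.19% higher, 8.29% lower) and 30.5% of the bright genes were called. The median log2 fold change of the members in ANIT livers was −0.08, close to the −0.09 over all genes, while that of the bright genes was 0.01. In DMN livers 6 were called, 1 higher and 5 lower, where 10.4% of all genes (5.87% higher, 4.53% lower) and 20.8% of the bright genes were called. The member median in DMN livers was −0.11, where that of all genes was −0.06 and that of the bright genes −0.01. The count in ANIT livers was 6 without the doubted arrays and 9 without the arrays low in GAPDH signal, and that in DMN livers was 7 in both settings. Single arrays mattered in these smaller counts: it fell to 2 without ANIT 5 and to 5 without ANIT 1, 2 or 4 in the ANIT comparison, and to 2 without DMN 5 in the DMN comparison. With each array centred on its median, the split in ANIT livers was 3 higher and 2 lower. With array weights the counts against control were 17 in ANIT, 11 in DMN and 22 in NMF livers.

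**Figure D1:**
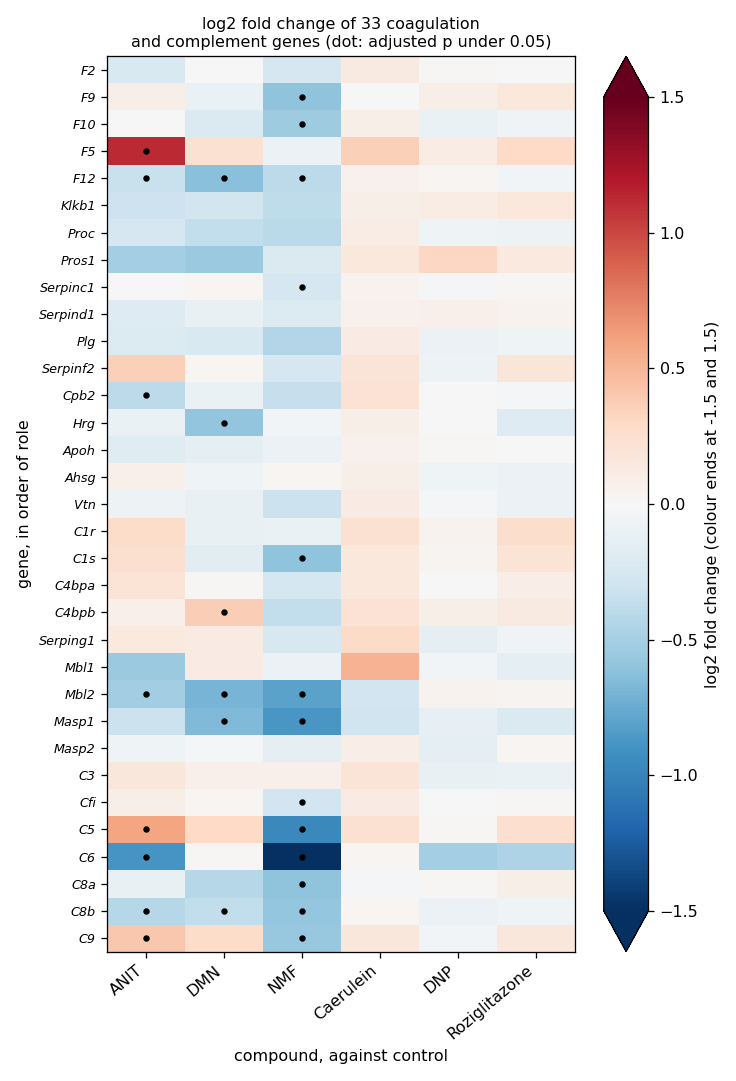
Log2 fold change of the 33 coagulation and complement genes (rows, in order of role) in each compound group (columns) against the 9 controls, with a dot where limma's adjusted p was under 0.05. The NMF column holds 13 dots, all on lower genes, while the Caerulein, DNP and Roziglitazone columns hold none; the F5 rise in ANIT livers and the C6 fall in NMF livers stand out.

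Of the 33 genes, 17 were called in at least 1 toxicant group and 16 in none of them, where 24.8% of all genes and 46.7% of the bright genes were called in at least 1, so the count was near that of the bright genes. F12, Mbl2 and C8b were lower in all 3 toxicant groups, which share their controls. Over all genes 2.12% were called in all 3, and 6.92% of the bright genes were. C5 and C9 were higher in ANIT livers and lower in NMF livers. The 16 that passed in none were F2, Klkb1, Proc, Pros1, Serpind1, Plg, Serpinf2, Apoh, Ahsg, Vtn, C1r, C4bpa, Serping1, Mbl1, Masp2 and C3.

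The terminal complement genes were the group most often called in NMF livers, and C6 had the largest fall. All 5 measured members fell in NMF livers, while in ANIT livers 2 rose and 2 fell, and in DMN livers 1 fell. C6, which binds C5b as the pore begins to form, read 7.75, 6.73, 7.58, 8.86 and 7.80 in NMF livers 1 to 5. In control livers C6 had a lowest value of 10.11, a median of 10.50 and a highest value of 10.94. All 5 NMF livers thus lay more than 1 log2 unit below the lowest control, and C6 was 6.77-fold lower (log2 fold change −2.76 ± 0.28 SE, limma adjusted p = 1.13e-08). In ANIT livers C6 read 9.54, 9.69, 9.89, 9.37 and 9.57, again below every control, a 1.85-fold fall (adjusted p = 0.0264). That call was lost without ANIT 1, 4 or 5, with adjusted p between 0.056 and 0.0677. It was also lost with replicate number as a block in the fit (limma adjusted p = 0.0935). C6 values of this size also occurred outside the toxicants: DNP livers ran from 9.31 to 10.72 and Roziglitazone livers from 9.15 to 10.73. The low DNP livers were DNP 1 (9.31), an array low in GAPDH signal, DNP 4 (9.37) and DNP 5 (9.83). The low Roziglitazone livers were Roziglitazone 2 (9.15), with its doubted label, and Roziglitazone 1 (9.46), low in GAPDH signal, while the others read 10.19 to 10.73. In DMN livers C6 read 9.91, 10.29, 10.51, 10.87 and 11.02, with 1 array just below and 1 just above the control range (log2 fold change 0.02, adjusted p = 0.976).

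C5, whose cleavage opens the terminal pathway, went opposite ways in ANIT and NMF livers. It read 11.96, 12.10, 11.91, 12.01 and 12.42 in ANIT livers, against 11.19 to 11.75 with a median of 11.51 in control livers, with no overlap. C5 was 1.5-fold higher in ANIT livers (log2 fold change 0.59 ± 0.18 SE, adjusted p = 0.0208 by limma). That call was lost without ANIT 5 (0.0816) and with replicate number as a block in the fit (0.11). In NMF livers C5 read 10.17, 10.53, 11.31, 10.71 and 9.90, with NMF 3 alone inside the control range, and it was 1.96-fold lower (log2 fold change −0.97 ± 0.18 SE, adjusted p = 0.00031). DMN livers were spread on both sides, at 12.13, 11.27, 12.31, 11.94 and 11.32, and C5 was not called there (adjusted p = 0.325).

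C9, the subunit that lines the pore, moved in the same directions as C5 in ANIT and NMF livers. It read 13.03, 13.41, 13.30, 13.38 and 13.54 in ANIT livers, against 12.60, 12.99 and 13.16 as the lowest, median and highest control. The rise in ANIT livers was 1.32-fold (log2 fold change 0.40 ± 0.12 SE, adjusted p = 0.0189 by limma). It was not called without ANIT 5 (0.0715) or with replicate number as a block in the fit (0.0627). In NMF livers C9 read 11.99, 12.30, 12.69, 12.71 and 12.13, with NMF 3 and 4 inside the control range, a 1.48-fold fall (log2 fold change −0.57 ± 0.12 SE, adjusted p = 0.00176). In DMN livers it read 13.25, 13.05, 13.23, 13.27 and 13.22 and did not pass (log2 fold change 0.27, adjusted p = 0.153).

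C8b and C8a encode the beta and alpha chains of C8. C8b was lower in all 3 toxicant groups with no array inside the control range of 12.11 to 12.39. It read 11.86, 11.75, 11.97, 11.82 and 11.95 in ANIT livers (log2 fold change −0.42 ± 0.10 SE, limma adjusted p = 0.00238). It read 11.98, 11.95, 12.03, 12.04 and 11.65 in DMN livers (−0.37 ± 0.10 SE, adjusted p = 0.0108). The DMN call was lost without DMN 5 (limma adjusted p = 0.0503) and with replicate number as a block in the fit (0.0584). NMF livers had the lowest C8b group mean, with values of 11.61, 11.60, 11.98, 11.74 and 11.60 (−0.59 ± 0.10 SE, adjusted p = 6.9e-05). C8a was called in NMF livers, where it read 11.31, 11.31, 11.90, 11.58 and 10.96, against 11.67, 12.02 and 12.53 as the lowest, median and highest control. Its log2 fold change in NMF livers was −0.60 ± 0.16 SE (adjusted p = 0.0117; 0.0775 without NMF 5), and that in DMN livers was −0.42 with adjusted p = 0.081. C8g, the gamma chain, which is outside the 33 genes, was lower in ANIT (−0.44), DMN (−0.45) and NMF (−0.65) livers, each with an adjusted p under 0.05.

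**Figure D2:**
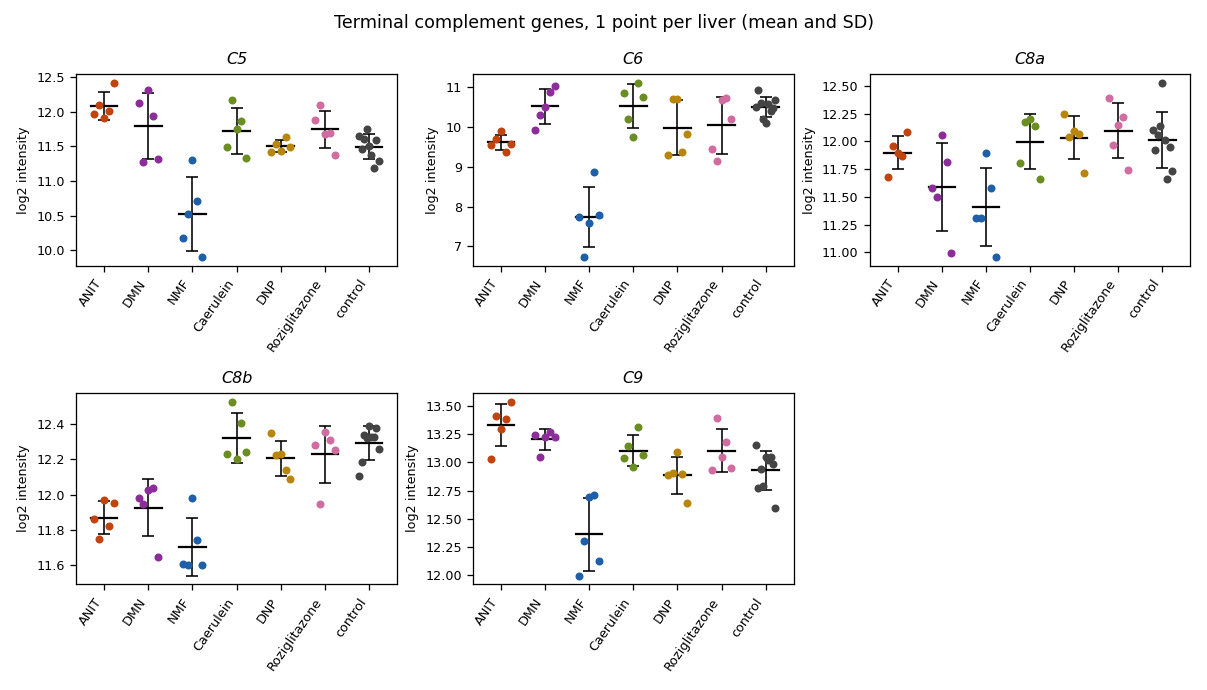
Log2 intensity of the terminal complement genes C5, C6, C8a, C8b and C9 in every liver (points), with group mean and SD (bars), by compound and control; each panel has its own y axis. NMF livers have the lowest group mean in all 5 panels, C6 from 6.73 to 8.86 against 10.11 to 10.94 in control livers, while C5 and C9 lie high in ANIT livers.

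Of the genes that start complement, Mbl2 of the lectin route fell in all 3 toxicant groups, while few of the classical route were called. Masp1, by its brightest probe set, fell in DMN and NMF livers. Mbl2, a mannose-binding lectin that recognises microbial sugars, had no toxicant array inside the control range of 12.02 to 12.70. It read 11.86, 11.74, 11.71, 11.82 and 11.52 in ANIT livers, 11.98, 11.30, 11.79, 11.81 and 10.87 in DMN livers, and 11.36, 11.46, 11.71, 11.77 and 10.95 in NMF livers. The log2 fold changes were −0.52 ± 0.18 SE in ANIT (limma adjusted p = 0.041), −0.70 in DMN (0.00855) and −0.80 in NMF livers (0.0028). The ANIT call was lost in 9 of the fits that left out 1 array, among them those without each ANIT array in turn, with adjusted p up to 0.111. The DMN call was lost without DMN 5 (0.0553). Caerulein 5, at 11.10, was below every ANIT array and above the lowest arrays of the DMN and NMF livers. A second Mbl2 probe set gave −0.60 in NMF livers with no call, and with the mean of both probe sets the adjusted p was 0.0833 in DMN and 0.07 in NMF livers.

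Masp1, a protease that associates with these lectins, read 10.06, 10.02, 10.23, 9.72 and 9.89 in DMN livers and 9.46, 9.69, 10.27, 9.86 and 9.61 in NMF livers, against 10.21, 10.73 and 11.15 as the lowest, median and highest control. DMN 3 and NMF 3 reached the control range and the other arrays of both groups lay below it. Masp1 was 1.59-fold lower in DMN livers (log2 fold change −0.67 ± 0.15 SE, limma adjusted p = 0.0029) and 1.83-fold lower in NMF livers (−0.87 ± 0.15 SE, adjusted p = 0.000121). The other Masp1 probe sets were dimmer, with means of 7.78 and 7.64, and gave −0.08 and −0.29 in NMF livers without a call. In DMN livers each gave −0.38, also without a call (limma adjusted p = 0.505 and 0.193, in a fit of single probe sets). In ANIT livers the brightest probe set gave −0.32 without a call. The dimmer ones gave −0.94 (limma adjusted p = 0.0237, in a fit of single probe sets) and −0.47 (0.0638) there. With the mean of all its probe sets the NMF call was lost (adjusted p = 0.059). Masp2 and Mbl1, the other measured lectin route genes, passed in none of the toxicant groups. Without the arrays low in GAPDH signal, however, Mbl1 was lower in ANIT livers (log2 fold change −0.92, adjusted p = 0.00621).

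In the classical route, C1s, a protease of the C1 complex, fell in NMF livers. It read 11.51, 11.74, 12.11, 11.80 and 11.47 there, against 12.10, 12.36 and 12.46 as the lowest, median and highest control, so NMF 3 alone touched the control range. The fall was 1.51-fold (log2 fold change −0.60 ± 0.12 SE, limma adjusted p = 0.00103). C4bpb, the beta chain of the C4b-binding protein that inhibits this route, was the single member higher in DMN livers, at 12.32, 12.78, 12.63, 12.63 and 12.56, against 11.94, 12.23 and 12.54 as the lowest, median and highest control. Its log2 fold change in DMN livers was 0.37 ± 0.12 SE (adjusted p = 0.0381), and the call was lost in 8 of the fits that left out 1 array: DMN 2, 3, 4 or 5, or control 1, 3, 6 or 8 (0.0503 to 0.094). In ANIT livers no gene of the classical route was called, although C4bpa had no overlap between the groups (log2 fold change 0.20, adjusted p = 0.215). Non-overlapping arrays were found for 5 members in ANIT livers, where 5.74% of all genes had them, for 2 in DMN livers (2.33%) and for 5 in NMF livers (3.94%). These shares are over all genes, not over genes as bright as the members. Cfi, the protease that inactivates C3b and C4b, was lower in NMF livers at 12.47, 12.61, 12.80, 12.77 and 12.71, all below the control range of 12.83 to 13.17. Its log2 fold change was −0.29 with limma adjusted p = 0.0478, and the call was lost without NMF 1, 2, 4 or 5 and without control 1, 6, 7, 8 or 9 (0.0611 to 0.179). C3, on which all routes meet, was not called in any toxicant comparison (log2 fold changes of 0.17 in ANIT, 0.08 in DMN and 0.08 in NMF livers, and without control 5 of 0.02 in ANIT, −0.07 in DMN and −0.07 in NMF livers).

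**Figure D3:**
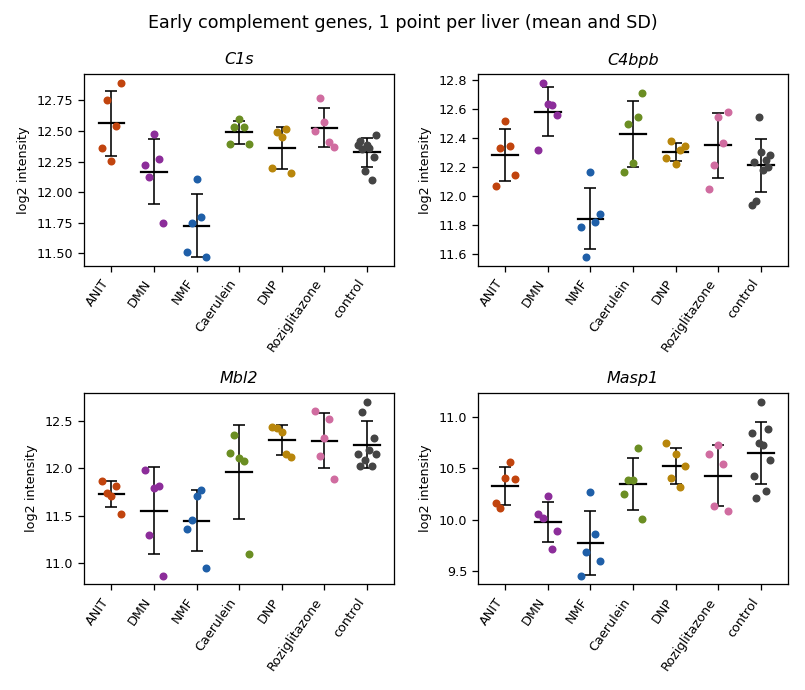
Log2 intensity of C1s, C4bpb, Mbl2 and Masp1 in every liver (points), with group mean and SD (bars), by compound and control; each panel has its own y axis. The group means of C1s and C4bpb are lowest in NMF livers and that of C4bpb highest in DMN livers, and Mbl2 is below all controls in the 15 toxicant livers.

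Among the vitamin K dependent clotting enzymes, F9 and F10 fell in NMF livers and F2, prothrombin, did not pass in any toxicant group. F10, which forms the enzyme that cleaves prothrombin, read 11.85, 11.84, 11.95, 11.85 and 11.91 in NMF livers, against 12.14, 12.44 and 12.61 as the lowest, median and highest control. The groups did not overlap and the fall was 1.44-fold (log2 fold change −0.53 ± 0.11 SE, limma adjusted p = 0.00157). F9, the factor absent in haemophilia B, read 11.47, 11.75, 12.29, 11.94 and 11.41 in NMF livers, against 11.87, 12.33 and 12.84 in control livers, with NMF 3 and 4 inside the control range. It was 1.52-fold lower (log2 fold change −0.60 ± 0.14 SE, adjusted p = 0.0044). Neither gene was called in ANIT livers (0.09 for F9 and 0.00 for F10) or DMN livers (−0.11 and −0.22).

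F5, the cofactor that speeds prothrombin cleavage, had the largest rise of any member. It read 11.33, 11.60, 11.14, 11.72 and 11.59 in ANIT livers, against 9.47, 10.35 and 11.15 as the lowest, median and highest control. ANIT 3 alone was inside the control range, and F5 was 2.18-fold higher (log2 fold change 1.12 ± 0.32 SE, limma adjusted p = 0.0124), a call that held in every alternative fit. F5 spread widely in untreated rats, and Roziglitazone 2, at 11.68, read like the ANIT livers. It was below all other arrays on 5 of the 6 arrays low in 5′ GAPDH signal, among them control 4 (9.47) and control 5 (9.75), and none of the 6 was an ANIT liver. Without these arrays the log2 fold change of F5 in ANIT livers was 0.91 (adjusted p = 0.00359). In DMN and NMF livers the log2 fold changes were 0.22 and −0.08, without a call.

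F12, which starts the contact route, was lower in all 3 toxicant groups. It read 12.23, 12.27, 11.86, 12.37 and 12.06 in ANIT livers, 11.99, 11.89, 11.91, 11.79 and 11.73 in DMN livers, and 12.18, 12.03, 12.39, 11.97 and 11.91 in NMF livers. Control livers had 11.96, 12.57 and 12.75 as the lowest, median and highest value, the lowest being control 5, so every group overlapped. The log2 fold changes were −0.33 ± 0.12 SE in ANIT (limma adjusted p = 0.044), −0.63 ± 0.12 SE in DMN (0.00036) and −0.39 ± 0.12 SE in NMF livers (0.0283). The DMN call held in every alternative fit. The ANIT call was lost in 10 of the fits that left out 1 array (ANIT 1, 2, 3 or 5, control 1, 2, 4, 6, 7 or 9; up to 0.159), and the NMF call in 4 (NMF 2, 4 or 5, control 4; up to 0.106). Klkb1, plasma prekallikrein of the same route, was not called in any of the 3 comparisons (−0.31, −0.27 and −0.38 in ANIT, DMN and NMF livers).

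Few genes that restrain clotting or dissolve the clot passed. Serpinc1, antithrombin, was 1.19-fold lower in NMF livers at 12.99, 13.07, 13.25, 13.13 and 13.14, against 13.20, 13.38 and 13.42 as the lowest, median and highest control (limma adjusted p = 0.0494), a call lost in 12 of the fits that left out 1 array: NMF 1, 2, 4 or 5, or any control but control 5 (up to 0.157). Cpb2, an inhibitor of fibrinolysis, read 12.07, 11.85, 12.27, 11.82 and 11.82 in ANIT livers, against 12.07, 12.38 and 12.67 in control livers. It was 1.31-fold lower (log2 fold change −0.39 ± 0.13 SE, adjusted p = 0.0299), and without ANIT 2, 4 or 5 or control 4 or 8 the adjusted p was up to 0.087. Hrg, a histidine-rich glycoprotein that binds plasminogen and heparin, read 12.96, 13.55, 12.67, 12.85 and 11.92 in DMN livers, against 12.86, 13.43 and 13.66 in control livers. DMN 2 lay well inside the control range and DMN 5 far below it. Hrg was 1.51-fold lower (log2 fold change −0.60 ± 0.17 SE, limma adjusted p = 0.0186), and the call was lost without DMN 5 (log2 fold change −0.38, 0.118) or DMN 3 (0.0559). Protein C (Proc), its cofactor protein S (Pros1), heparin cofactor II (Serpind1), plasminogen (Plg) and alpha-2-antiplasmin (Serpinf2) passed in none of the 3 comparisons. Proc came nearest, with −0.40 in NMF livers (adjusted p = 0.059). For Plg the controls were split by 1 array: control 5 read 12.36 and the other controls 13.35 to 13.56. Every toxicant liver lay between these, at 12.47 to 13.32, so the missing Plg call does not show an unchanged level.

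**Figure D4:**
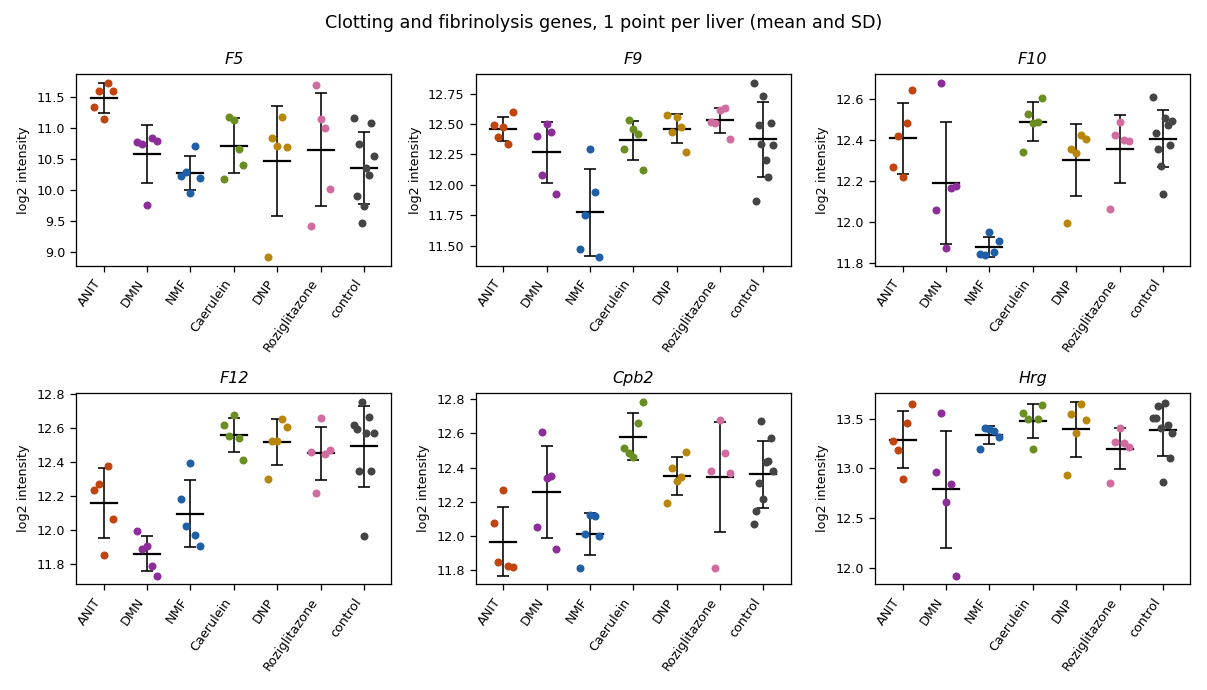
Log2 intensity of F5, F9, F10, F12, Cpb2 and Hrg in every liver (points), with group mean and SD (bars), by compound and control; each panel has its own y axis. F5 is high in ANIT livers, F9 and F10 are low in NMF livers with F10 from 11.84 to 11.95, and F12 is low in all 3 toxicant groups.

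The plasma carriers Apoh, Ahsg and Vtn were not called in any toxicant group. Vtn still read low across NMF livers, at 13.12 to 13.30, where control 5 read 12.89 and the other controls 13.44 to 13.74. Serping1, also not called, read 12.30 to 12.59 in NMF livers. Control 5 read 11.46 for Serping1, control 4 read 12.36 and the other controls 12.74 to 13.05. Levels of the carriers and of some complement genes were also low on single arrays of several groups. On DNP 1, Roziglitazone 1 and control 5, which were low in the 3′ GAPDH signal too (8.09 to 10.84, where all others read 12.66 to 13.27), the 4 genes C3, Ahsg, Vtn and Serping1 were below all 36 other arrays. C3 read 12.54 on DNP 1, 12.68 on Roziglitazone 1 and 12.59 on control 5, while the others ran from 13.79 to 14.08. Mbl1 was also low there, at 9.29 on DNP 1, 9.56 on Roziglitazone 1 and 8.83 on control 5, but ANIT 5 read 9.47. What moved these genes on the 3 arrays was not tested.

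**Figure D5:**
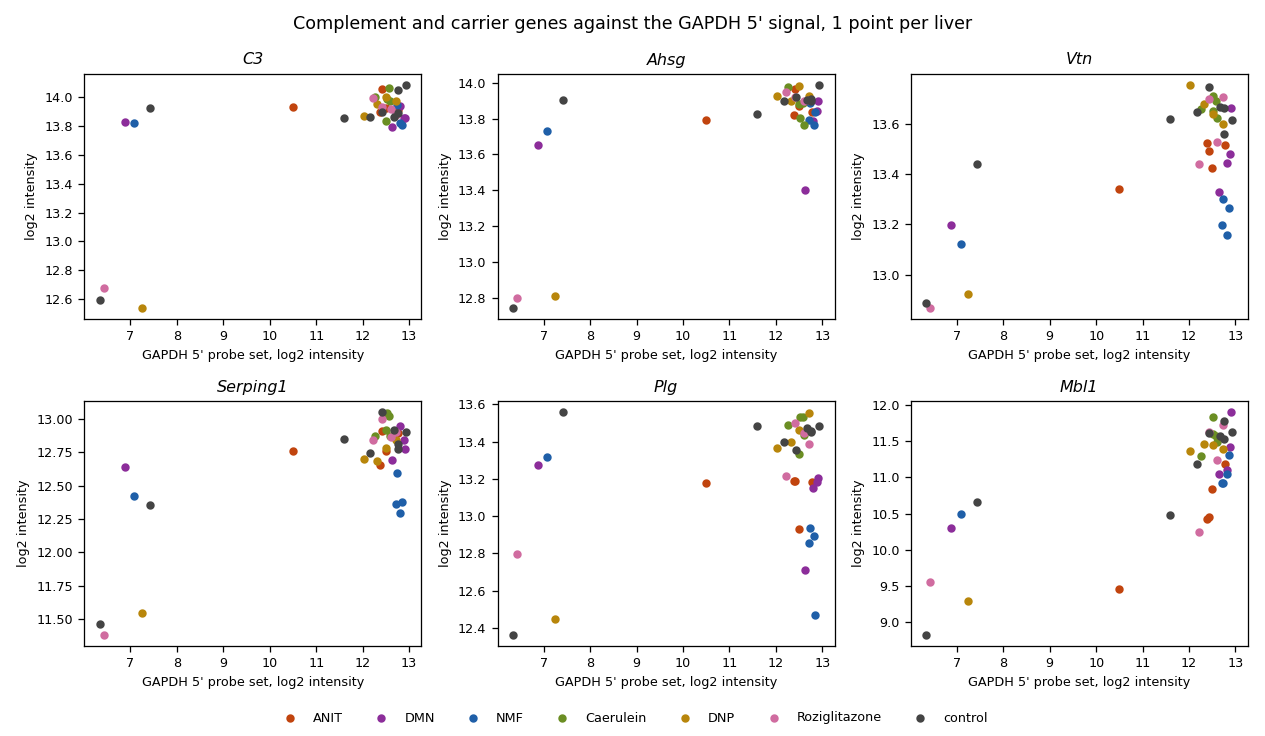
Log2 intensity of C3, Ahsg, Vtn, Serping1, Plg and Mbl1 (y axes) against the 5′ GAPDH control probe set (x axes), 1 point per liver, coloured by group. The 6 arrays at 7.42 or less on the x axis include DNP 1, Roziglitazone 1 and control 5, which lie lowest in C3, Ahsg, Vtn and Serping1. In C3, Ahsg and Serping1 the other arrays with low 5′ signal lie within the range of the rest. In Vtn, NMF 3 (13.12) also lies below every array with higher 5′ signal (13.16 or more).

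Differences between toxicants are differences of their own means, although all groups, controls included, share the estimate of spread. ANIT livers had 11 of the 33 genes higher than NMF livers and 0 lower, where 6.61% of all genes were called, 3.76% as higher and 2.86% as lower. Bright genes were called more often than all genes against control, 22.3% against 7.48% in NMF livers. Shares of the bright genes are not given here for comparisons between single compounds or for overlap. There the shares over all genes may understate those of genes as bright as the members. The arrays of 11 members did not overlap between these groups, where 7.61% of all genes had no overlap. The 11 called genes were F9, F10, F5, C1s, C4bpa, C4bpb, Masp1, Cfi, C5, C6 and C9. C5 averaged 12.08 in ANIT livers and 10.53 in NMF livers, a 2.94-fold difference (log2 1.55 ± 0.20 SE, limma adjusted p = 4.22e-06) with no overlap. C6 averaged 9.61 in ANIT livers and 7.74 in NMF livers (3.65-fold, adjusted p = 0.00023), and C9 13.33 in ANIT livers and 12.36 in NMF livers (1.96-fold, adjusted p = 1.97e-05). Masp1 turned round with the probe sets used: the log2 difference was 0.55 for its brightest probe set and −0.16 for the mean of all. The count of 11 fell to 6 without NMF 1 and to 7 without NMF 2 or NMF 5, and it was 9 without the doubted arrays and 17 without the arrays low in GAPDH signal.

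DMN livers had 4 genes higher than NMF livers and 0 lower, where 4.66% of all genes were called, 3.0% as higher and 1.66% as lower. The arrays of 5 members did not overlap, where 3.4% of all genes had no overlap. The 4 genes were C4bpb, C5, C6 and C9. C6 averaged 10.52 in DMN livers and 7.74 in NMF livers, a 6.86-fold difference (log2 2.78 ± 0.32 SE, limma adjusted p = 4.26e-07), and C5 averaged 11.79 in DMN livers and 10.53 in NMF livers (2.41-fold, adjusted p = 7.48e-05). Without DMN 5 the count was 8, without the doubted arrays 7 and without the arrays low in GAPDH signal 6. Between ANIT and DMN livers limma called 0 of the 33 genes, with 8 at an unadjusted p under 0.05, where 2.53% of all genes were called. The count was 1 without ANIT 3, 1 without DMN 2, and 1 without either the doubted arrays or those low in GAPDH signal.

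Taken as means of groups, the 3 toxicants had 15 of the 33 genes lower than the other 3 compounds and 0 higher, where 19.0% of all genes (9.28% lower, 9.67% higher) and 40.9% of the bright genes were called, 20.1% of the bright genes as lower. The genes were C1s, C6, C8a, C8b, Cpb2, F10, F12, F2, F9, Klkb1, Masp1, Mbl2, Proc, Pros1 and Serpind1. The count was 16 without the doubted arrays and 20 without the arrays low in GAPDH signal. F2, Klkb1, Proc, Pros1 and Serpind1 had passed in no single toxicant. Klkb1 averaged 11.45 in the toxicants and 11.89 in the other compounds (log2 difference −0.44 ± 0.09 SE, limma adjusted p = 0.000676), and 14 of the 15 toxicant livers were below that mean. Pros1 averaged 10.27 in the toxicants and 10.91 in the other compounds (−0.63 ± 0.15 SE, adjusted p = 0.00241, 14 of 15 below). Proc averaged 12.05 in the toxicants and 12.38 in the other compounds (−0.33 ± 0.09 SE, adjusted p = 0.00611, 14 of 15 below). F2 was the weakest of the calls (−0.21, adjusted p = 0.0488) and was lost in 24 of the fits that left out 1 array. The F10 call was lost without DMN 3 (0.0562), and with each array centred on its median F2, F9, F10 and Serpind1 did not pass.

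Within a shared vehicle and route, the genes called were all lower with the toxicant; these comparisons use the same NMF and DMN livers as those with control. NMF livers had 16 genes lower than Caerulein livers and 0 higher, where 5.49% of all genes were called, 2.06% as lower and 3.43% as higher. The arrays of 20 members did not overlap, where 9.0% of all genes had no overlap, and all 33 log2 differences were below 0 with a median of −0.47. Here too the shares are over all genes, not over genes as bright as the members. Against control, Caerulein livers themselves lay higher in 29 of the 33 genes, with a median of 0.12 and 0 calls. C6 averaged 7.74 in NMF livers and 10.54 in Caerulein livers (−2.79 ± 0.32 SE, limma adjusted p = 1.88e-07), and C5 averaged 10.53 in NMF livers and 11.72 in Caerulein livers (−1.20 ± 0.20 SE, adjusted p = 0.00015). C4bpa, C4bpb, Cpb2 and Proc passed here and not against untreated livers, whereas Mbl2, called against untreated livers, did not pass here (log2 difference −0.51, adjusted p = 0.15). The count was 9 or 10 without Caerulein 2 or 4 or without NMF 1, 2, 4 or 5, 16 without the doubted arrays and 21 without those low in GAPDH signal. DMN livers had 5 genes lower than DNP livers and 0 higher, where 6.89% of all genes were called, 3.04% as lower and 3.85% as higher. They were F12, Pros1, Hrg, Mbl2 and Masp1. The arrays of 5 members did not overlap, where 4.7% of all genes had no overlap. F12 averaged 11.86 in DMN livers and 12.52 in DNP livers (−0.66 ± 0.13 SE, adjusted p = 0.00157). The count was 1 without DMN 5, 2 without DNP 2 or 3, and 3 without DMN 1, 3 or 4 or without DNP 1, 4 or 5. It was 6 without the doubted arrays and 3 without those low in GAPDH signal. C8b and C4bpb, called against untreated livers, did not pass against DNP livers (adjusted p = 0.118 and 0.224).

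In Caerulein, DNP and Roziglitazone livers limma called 0 of the 33 genes against control, and 0 had an unadjusted p under 0.05; the count was also 0 without either set of arrays. Over all genes 0.0% were called in each, with 541, 199 and 1044 genes at an unadjusted p under 0.05 in Caerulein, DNP and Roziglitazone livers. The largest differences in Caerulein livers were in Mbl1, with a mean of 11.56 in Caerulein and 11.03 in control livers, and F5, with 10.71 in Caerulein and 10.36 in control livers. The Mbl1 difference rested in part on control 5 (8.83): without it the log2 difference was 0.25 for Mbl1 and 0.28 for F5. In DNP livers they were in C6, with 9.99 in DNP and 10.50 in control livers, and Pros1, with 11.02 in DNP and 10.70 in control livers. In Roziglitazone livers they were in C6, with 10.04 in Roziglitazone and 10.50 in control livers, and F5, with 10.65 in Roziglitazone and 10.36 in control livers. The median log2 fold changes of the 33 genes were 0.12 in Caerulein, −0.01 in DNP and 0.01 in Roziglitazone livers.

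Genes of the same pathways outside the 33 were counted by list, where 16.5% of all genes were called in ANIT, 10.4% in DMN and 7.48% in NMF livers. None of the 3 fibrinogen chains was called in any toxicant group, with log2 fold changes between −0.02 and 0.19. Of the vitamin K cycle genes, Vkorc1, the reductase that regenerates the vitamin and the target of warfarin, was the member that passed, with lower levels in ANIT (−0.78 ± 0.12 SE, limma adjusted p = 3.27e-05), DMN (−0.51, 0.00527) and NMF livers (−0.41, 0.0302). Of 18 other coagulation genes, 1 rose in ANIT livers, 3 rose and 1 fell in DMN livers, and 2 fell in NMF livers. A2m, a protease inhibitor that the rat liver makes in inflammation, averaged 12.23 in ANIT, 11.30 in DMN and 8.88 in control livers, 10.2-fold higher in ANIT (adjusted p = 0.00074) and 5.37-fold higher in DMN livers (0.0173). In NMF livers A2m averaged 8.42 and was not called (adjusted p = 0.794). Procr (1.09) and Tfpi (0.77), which encode the protein C receptor and the tissue factor pathway inhibitor, rose in DMN livers. Serpine2, a thrombin inhibitor, fell in DMN (−0.97) and NMF livers (−1.17), and Hgfac fell in NMF livers (−0.57).

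Of 16 other complement genes, 1 rose and 3 fell in ANIT livers, 3 rose and 4 fell in DMN livers, and 4 fell in NMF livers. Colec11, a collectin that can start the lectin route, was lower in ANIT (−1.06, limma adjusted p = 0.000374) and DMN livers (−1.09, 0.000404). Fcna, ficolin A of the same route, was lower in ANIT (−0.57), DMN (−0.63) and NMF livers (−0.91), each with an adjusted p under 0.05. Cfd, the factor D protease of the alternative route, fell in DMN (−1.08) and NMF livers (−0.72). Cr1l rose in ANIT (0.68) and DMN livers (1.0), Fcnb (1.23) and C5ar1 (0.47) rose in DMN livers, and C1qc fell in NMF livers (−0.50). Of 9 measured liver transcription factors that act on such promoters, Foxa1 fell in ANIT livers (−1.24, adjusted p = 0.00245) and limma called 0 in DMN and NMF livers.

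Markers of cell types were read beside these counts. Of the 6 hepatocyte markers 1 was higher in ANIT livers (Apoa1, 0.38) and 0 were called in DMN or NMF livers, with averages per liver of 13.29 to 13.41 in ANIT, 13.12 to 13.22 in DMN, 12.90 to 13.30 in NMF and 12.89 to 13.40 in control livers. Neutrophil markers were higher in DMN livers (4 of 5), averaging 5.72 to 8.05 in DMN and 5.66 to 6.62 in control livers. Macrophage markers were lower in NMF livers (3 of 7), averaging 8.94 to 9.81 in NMF and 9.32 to 9.98 in control livers, and endothelial markers were lower in ANIT (2 of 5) and DMN livers (3 of 5). Erythroid markers fell in NMF livers (2 of 2), averaging 8.50 to 9.51 in NMF and 10.01 to 11.53 in control livers, and stellate cell markers did so too (3 of 7). No marker was at 0, since arrays give a signal for every probe set. The part of these cells in the changes of the 33 genes was not tested.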

How the data were processed

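Total RNA of 39 rat livers was measured on Affymetrix rat expression arrays, 1 per animal. The deposited numbers are linear intensities per probe set, and per the submitters' processing notes they were made with RMA and the affy package, with versions not given; RMA usually ends on log2, and no step back to a linear scale is stated in the sources used here. The log2 was taken here. The mean intensity of an array was 348 to 363 and the median 77.8 to 109.

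Of 31099 probe sets, 57 are controls, 20826 had 1 gene symbol, 436 several and 9780 none; a RefSeq gene table (GRCr8, names only) updated 20758 symbols and 68 stayed as they were. Each gene was represented by its brightest probe set on average, and no dim gene was left out. All arrays entered 1 linear model with a mean for each of the 7 groups, in limma 3.58.1 under R 4.3.3 (lmFit, contrasts.fit, eBayes). Benjamini-Hochberg adjustment ran over the 14217 genes in each comparison, and a gene was called under 0.05. The script was tested on simulated data. Folds carry the SE from limma. Arrays have no read depth; their number limits the precision.

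The 38 members, the role groups and the other lists were chosen with earlier results of these data known. Every measured member is named. Per comparison with control, values in every array are given for up to 6 called members a direction with the largest fold and for further calls described singly. Genes outside the members are those called with the largest fold, up to 4 a direction per list. Kng1 and Kng2 map to 1 gene and were counted once. Replicate numbers were not taken as pairs: 1 of 21 pairs of groups had every same-numbered pair of arrays correlated above 0.1, and 58 of 105 pairs of arrays did. Nothing in the labels says how the animals were batched. Alternatives were median centring, quantile normalization once more, leaving out the 30% of genes lowest in mean, leaving out ANIT 3, DMN 2 and Roziglitazone 2, the mean of all probe sets, a replicate block, array weights, leaving out each array in turn and, chosen after seeing the data, leaving out the 6 arrays low in 5′ GAPDH signal.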

Additional observations from a re-analysis of the deposited data

Results flagged for a closer look

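Of 231 sets of values (33 genes in 7 groups), 34 held an array that stood apart from the rest of its group by Dixon's test at the 0.05 level, where 11.55 would be called by chance, at about 1 in 20. DNP 1 accounted for 10 of them, control 5 for 8 and Roziglitazone 1 for 5. On DNP 1 the log2 intensities were 12.93 for F2, 11.997 for F10, 8.92 for F5, 12.45 for Plg, 13.38 for Apoh, 12.81 for Ahsg, 12.92 for Vtn, 11.55 for Serping1, 9.29 for Mbl1 and 12.54 for C3, each the lowest of the DNP livers. On control 5 they were 13.20 for Serpinc1, 12.36 for Plg, 11.10 for Serpinf2, 12.75 for Ahsg, 12.89 for Vtn, 11.46 for Serping1, 8.83 for Mbl1 and 12.59 for C3. On Roziglitazone 1 they were 12.07 for F10, 12.80 for Ahsg, 12.10 for C1r, 11.39 for Serping1 and 12.68 for C3. These 3 arrays are among the 6 with a low 5′ GAPDH signal; the part of RNA quality in these values was not tested.

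On DMN 5 the genes Serpind1 (12.04), Plg (12.71) and C8b (11.65) stood below the other DMN livers, and on Caerulein 5 Pros1 (10.08) and Mbl2 (11.10) stood below the other Caerulein livers. Single values stood apart for F5 on DMN 3 (9.75), C9 on DMN 2 (13.05), Plg on ANIT 1 (12.93), Apoh on ANIT 5 (13.22) and C8b on Roziglitazone 2 (11.95), all low, and for C3 on ANIT 2 (14.06), which was high.

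The change from control differed between toxicants by a direct limma test for 11 genes in ANIT against NMF livers and 4 in DMN against NMF livers. ANIT minus NMF, in log2, was 0.84 for C1s, 0.47 for C4bpa, 0.44 for C4bpb, 1.55 for C5, 1.87 for C6, 0.97 for C9, 0.38 for Cfi, 0.53 for F10, 1.20 for F5, 0.69 for F9 and 0.55 for Masp1, with all 5 ANIT livers above the NMF mean for each gene. DMN minus NMF was 0.74 for C4bpb, 1.27 for C5, 2.78 for C6 and 0.84 for C9, with all 5 DMN livers above the NMF mean.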

How the results depend on the processing

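Counts of called genes among the 33 were 0 in Caerulein, DNP and Roziglitazone livers in every alternative run. Median centring gave 5 for ANIT against control (main count 8), 6 for ANIT against NMF (11), 2 for DMN against DNP (5) and 9 for NMF against Caerulein (16). Array weights gave 17 for ANIT, 11 for DMN (6) and 22 for NMF against control (13), 5 for ANIT against DMN (0), 11 for DMN against NMF (4) and 25 for NMF against Caerulein. The replicate block, although the numbers were not taken as pairs, gave 3 for ANIT against control and 3 for DMN against DNP, and changed no other count by over 1.5 times. The mean of all probe sets gave 3 for DMN against DNP and turned Masp1 in ANIT against NMF livers to −0.16 (adjusted p = 0.610). Without ANIT 3, DMN 2 and Roziglitazone 2 the count was 1 for ANIT against DMN and 7 for DMN against NMF. Without the 6 arrays low in 5′ GAPDH signal, an alternative chosen after seeing the data, it was 20 for NMF against control, 1 for ANIT against DMN, 17 for ANIT against NMF and 3 for DMN against DNP. Leaving out 1 array at a time gave 2 to 7 for ANIT, 2 to 7 for DMN and 9 to 16 for NMF against control, 0 to 1 for ANIT against DMN, 6 to 12 for ANIT against NMF, 4 to 8 for DMN against NMF, 13 to 18 for the toxicants against the other compounds, 1 to 6 for DMN against DNP and 9 to 18 for NMF against Caerulein. The cause of these shifts was not tested. F9, F10, C1s, C5, C6, C8b and C9 in NMF livers, F12 and Masp1 in DMN livers and F5 and C8b in ANIT livers stayed called in every alternative run. Of the single-gene values outside the fits that leave out 1 array, 2994 kept their side of the threshold, 62 lost the call, 111 gained it and 1 reversed. Apoh, Ahsg and C3 lay within 1 log2 unit of the highest intensity on any array, which limits how a rise in them can be read.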

Other observations

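Averaged over the 33 genes, each NMF liver lay below the mean of the control livers, by log2 differences of −0.53, −0.47, −0.26, −0.32 and −0.55 in NMF 1 to 5, with 28 to 31 of the 33 genes below the control mean in each. In the other toxicant groups the averages were small, −0.09 to −0.04 in ANIT livers and −0.10 to −0.03 in DMN 1 to 4, while DMN 5 was at −0.40 with 26 genes below. Averages as low as in NMF 3 also occurred on DNP 1 (−0.38), control 5 (−0.31) and Roziglitazone 1 (−0.26). Those arrays had 25, 21 and 24 genes below the control mean, and of them DNP 1 alone was also lower than NMF 4. The NMF livers other than NMF 3 and NMF 4 lay below every array of the other groups. In Roziglitazone 3 none of the genes was below the control mean, with an average of 0.21. These are descriptions of single livers, and the control mean includes control 5.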
